A study of Triticum aestivum with 54 samples.

Results

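The young inflorescences of the diploid parents of a synthetic wheat were compared on 6 of the 54 arrays of the study, 3 from T. urartu and 3 from Ae. longissima. T. urartu (line TMU06, genome AA) was the male parent and Ae. longissima (line TL05, genome SlSl) the female parent of AT2, an allotetraploid made by crossing both species and doubling the chromosomes with colchicine. The other arrays carried AT2 at selfed generations S5 to S8, the 1:1 mixture of parental RNA called Mix, a wild (TD, ssp. dicoccoides) and a cultivated (TTR13, ssp. durum) natural tetraploid, and leaf samples of the same 9 genotypes. The leaf samples were second leaves of seedlings aged 3 weeks. Each parental array held RNA pooled from several untreated, chamber-grown plants at the booting stage, when the immature spike is still enclosed by the flag leaf sheath, and the 3 pools of a species were described as biological replicates. Each species was represented by 1 line, so a difference between species cannot be told apart from a difference between these lines.

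The arrays were assigned to the parents by the code in their titles, because the genotype field gives AT2 for all 54 arrays and the organism field gives bread wheat throughout. The extraction text of the labels names seedling leaf as the source of every RNA, while the tissue field and the study's methods give young inflorescence for these arrays. The data were set against both. Of 18 probe sets of histones H2A and H2B, whose messages accumulate in dividing cells, 16 were higher in the inflorescence than in the leaf arrays of each species, with a mean log2 level of 7.96 in inflorescence against 4.39 in leaf of T. urartu, and of 9.22 against 4.83 in Ae. longissima. Nuclear photosynthesis genes (8 probe sets) averaged 6.99 in inflorescence against 10.9 in leaf of T. urartu, and 7.38 against 11.1 in Ae. longissima. The 4 probe sets of raftin, a tapetum protein of the anther, were not higher in inflorescence than in leaf in either species. The floral identity and meiosis genes looked for had no annotated probe set.

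Polyploid wheats carry related copies of most genes, called homeologs, from different diploid ancestors. T. urartu is the donor of their A subgenome, and Ae. longissima belongs to the Sitopsis section of goat grasses, to which the donor of the B subgenome is related. Genes expressed at different levels in the parents are called PED genes (parental expression-differential) and the rest PEC genes (parental expression-conserved), as in the study. Both species were measured with probes designed on bread wheat sequences, and how well each probe bound RNA of each species was not tested. In bulk tissue, fewer cells of a type and less RNA per cell cannot be told apart.

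The probes themselves are not printed here. For 153 probe sets the study also designed primers to read a base at which the parents differ, and those of 6 transcripts described below are shown, 5′ to 3′, because they are the oligonucleotides designed to tell the parental copies of these transcripts apart. They are written in lower case throughout, with no base marked.
lgul (Ta.28068.1.S1_at), sequencing primer: ctgaatatgacaagggg
lgul (Ta.28068.1.S1_at), forward primer: accacctcggcggtcttgta
lgul (Ta.28068.1.S1_at), reverse primer: aatgcggttctggagttgacct
Prx1 (Ta.6572.1.S1_a_at), sequencing primer: tagggcgcggtagga
eIF4E (Ta.14707.1.S1_at), sequencing primer: tgacgaaatttgtggag
Ta.5529.1.A1_at, sequencing primer: tgcaagcttgaagcc
Ta.30497.1.A1_at, sequencing primer: gttgctgctcttaaagg
Ta.14590.1.S1_at, sequencing primer: ggtcatcaccacccg

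Correlations were taken over the 23348 probe sets that were analysed, chosen as described next. The T. urartu arrays correlated with each other at 0.987 to 0.991, the Ae. longissima arrays at 0.982 to 0.991, and arrays of different species at 0.749 to 0.762. A probe set, called a gene from here on, was analysed when its level exceeded the 65th percentile of each array in all 3 arrays of T. urartu, of Ae. longissima, of Mix or of any generation from S5 to S8, which left 23348 of 61115. Of these, 12252 (52.5%) differed between the parents at a Benjamini-Yekutieli adjusted p under 0.05 in limma and are the PED genes. The PED genes comprised 7483 that were higher in T. urartu (32% of those analysed) and 4769 that were lower (20.4%), or 6298 and 6262 when the arrays were first centred on their medians over these genes (6554 and 6054 after quantile normalization over all probe sets). The centring moved the median log2 difference of all analysed genes to -0.06, against 0.07 as deposited, so directions of small differences hold only relative to the deposited scale. The 3 values of T. urartu did not overlap those of Ae. longissima for 65% of the analysed genes.

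**Figure D1:**
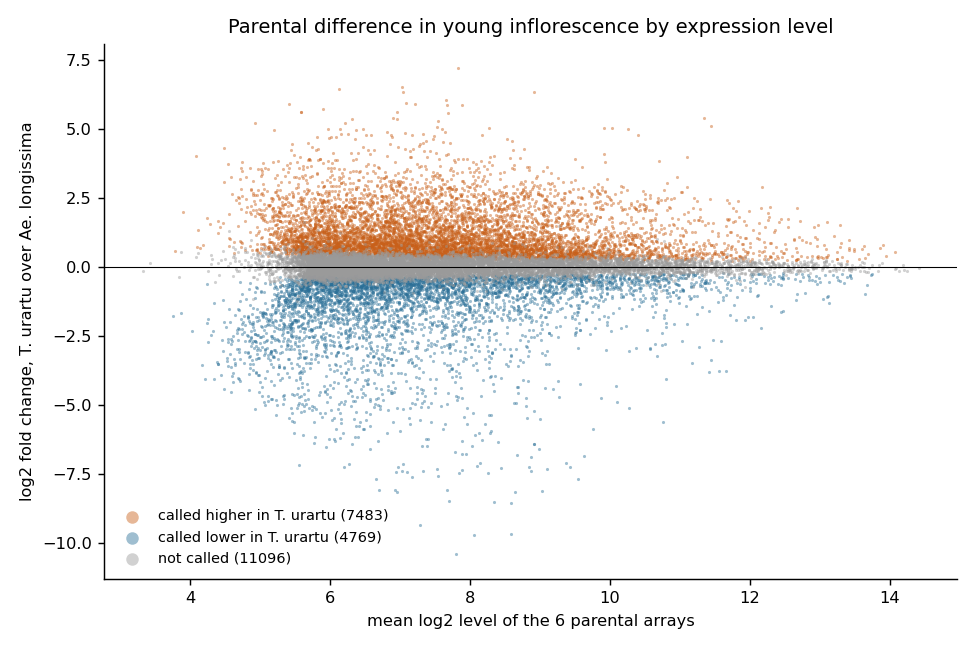
Each point is 1 of 23348 probe sets, with the mean log2 level over the 6 parental arrays on the horizontal axis and the log2 fold change of T. urartu over Ae. longissima on the vertical axis. Orange points (7483) were called higher and blue points (4769) lower in T. urartu, and the lower points reach farther from 0, to -10.42, than the higher points, which reach 7.18.

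On the deposited scale the larger number of PED genes was higher in T. urartu, but the largest gaps lay on the other side. With centring over the analysed genes the numbers in both directions were nearly equal, as given above. The counts by fold and by level that follow are on the deposited scale and were not repeated with other scalings. At 1.5-fold or more, 5573 genes were higher and 3513 lower in T. urartu, and at 4-fold or more 1266 and 1102. From 16-fold upward the order turned, with 93 higher and 303 lower, and from 64-fold upward 6 were higher and 74 lower. The median size of a called difference was 0.93 on the log2 scale, and the standard error of a difference had a median of 0.12. The excess toward T. urartu was also uneven over the range of expression. Among the dimmest of 5 equal classes of analysed genes (mean log2 level of 3.33 to 6.04) 1278 were higher and 1164 lower, and among the brightest (8.87 to 14.41) 1636 were higher and 857 lower.

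The genes entered the comparison in different ways. A gene that exceeded the percentile in 1 parent only had to be brighter there: 2538 genes did so in T. urartu alone, with 1928 called, all higher, and 2349 in Ae. longissima alone, with 1753 called, all lower. Of the 17376 genes above it in both parents, 5359 were higher in T. urartu, 2886 lower and the rest not called. The remaining 1085 exceeded it in neither parent, and 196 of them were higher in T. urartu and 130 lower. Among genes called at 16-fold or more, the dimmer parent lay under the median of its arrays, a level not told apart from background, for 55 of the 93 that were higher in T. urartu and for 218 of the 303 that were lower. A fold of such a gene is given below as a lower bound, the brighter parent's mean set against the median of the dimmer parent's arrays. Log2 differences, here and in the figures, are the measured ones and for such genes are not exact.

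Genes of histones H2A and H2B, which form part of the protein core on which DNA is wound, gave the widest gaps among named genes. Of 18 such probe sets 16 were analysed, of which 11 were lower in T. urartu (against 20.4% of all genes), 2 were higher (against 32%) and 3 did not pass the test. The median log2 difference of the 16 was -1.09, against 0.07 over all analysed genes. Among the 10 that exceeded the percentile in both parents, 8 were lower and 2 did not pass the test.

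wcH2B-8, an H2B gene, stood at Ta.7378.35.S1_x_at at 5.40, 5.78 and 5.12 on the log2 scale in T. urartu, against 12.53, 12.36 and 12.03 in Ae. longissima. The T. urartu arrays stood far below all 3 Ae. longissima arrays, a 117-fold lower signal (log2 difference -6.87 with a standard error of 0.14, adjusted p = 2.3e-21). This probe set exceeded the percentile in Ae. longissima only, so between the parents it passed the filter through the brighter one. At Ta.29542.1.S1_x_at, named wcH2A-2, the levels were 7.01, 7.15 and 6.61 in T. urartu, against 12.12, 11.44 and 11.32 in Ae. longissima. This H2A gene was 26-fold lower in T. urartu (log2 fold change -4.70, standard error 0.20), again with no overlap. wcH2A-9, another H2A gene, had 3.75, 3.43 and 3.34 in T. urartu, against 6.58, 6.62 and 6.71 in Ae. longissima at Ta.27657.12.S1_at, at least 3.61-fold lower in T. urartu. This probe set too exceeded the percentile in Ae. longissima only. The wcH2A-9 probe sets above it in both parents differed by -0.47 (Ta.27657.7.S1_x_at), -0.59 (Ta.27657.14.S1_s_at), -0.98 (Ta.27657.6.S1_x_at) and -2.79 (Ta.27657.14.S1_x_at). wcH2B-6 was also lower, with 10.85 to 11.31 in T. urartu against 12.06 to 12.38 in Ae. longissima at Ta.27708.1.S1_x_at, 1.11 lower as log2 (standard error 0.12, adjusted p = 2.92e-07).

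Probe sets of the same histone did not move together. At Ta.7378.18.S1_x_at, also named wcH2B-8, the levels were 7.55, 7.49 and 7.10 in T. urartu, against 4.45, 3.60 and 3.45 in Ae. longissima, at least 5.83-fold higher in T. urartu. At Ta.7378.1.S1_at and Ta.7378.1.S1_x_at, of the same name, the parents differed by 0.13 and 0.15 (standard errors 0.09 and 0.09) and the arrays overlapped. Of 7 probe sets named wcH2B-8, 2 were higher in T. urartu, 3 lower and 2 not called. Both higher probe sets exceeded the percentile in T. urartu only, so between the parents they passed the filter through the brighter one. Of the lower ones, Ta.7378.17.S1_x_at and Ta.7378.35.S1_x_at exceeded it in Ae. longissima only. Ta.7378.21.S1_at (-2.68) exceeded it in both parents, as did the probe sets that were not called. The names of these probe sets begin with the number of a sequence cluster, and the clusters of both histones hold further members without a gene name. These clusters were singled out after the values were seen, and they are described with no test over their members.

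**Figure D2:**
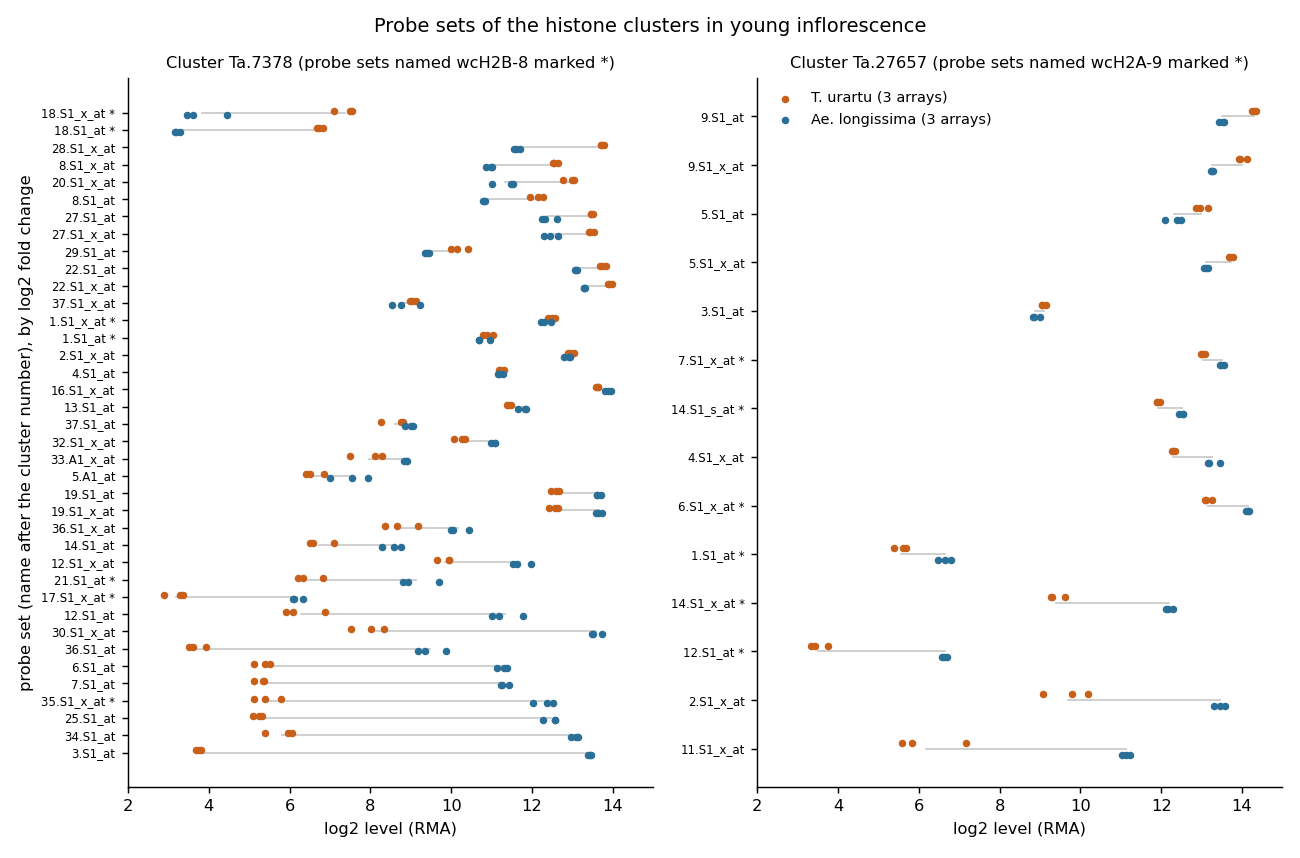
Each row is 1 probe set of cluster Ta.7378 (38 rows, left) or Ta.27657 (14 rows, right), ordered by the log2 fold change, with the log2 levels of the 3 T. urartu arrays in orange and of the 3 Ae. longissima arrays in blue. The left panel runs from 3.55 to -9.68, and in both panels bright probe sets are found with the T. urartu arrays on either side.

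All 38 probe sets of cluster Ta.7378 on the array were analysed, and 7 of them are named wcH2B-8. In this cluster 11 were higher in T. urartu (against 32% of all genes), 21 lower (against 20.4%) and 6 did not pass the test. Of the 28 members above the percentile in both parents, 9 were higher, 13 lower, down to -5.61, and 6 not called. Mean levels spanned 3.18 to 13.92 in T. urartu, against 3.21 to 13.88 in Ae. longissima, with the highest means at different probe sets. A mean above 12 was reached in T. urartu by 13 probe sets and in Ae. longissima by 14, of which 9 did so in both. Ta.7378.28.S1_x_at, with 13.79, 13.71 and 13.71 in T. urartu, against 11.54, 11.61 and 11.71 in Ae. longissima, was 2.11 higher on the log2 scale in T. urartu (adjusted p = 1.19e-18). Ta.7378.34.S1_at, with 5.39, 6.07 and 5.97 in T. urartu, against 13.13, 13.10 and 12.96 in Ae. longissima, was 7.26 lower. Another bright member, Ta.7378.16.S1_x_at, had 13.59, 13.64 and 13.63 in T. urartu, against 13.95, 13.87 and 13.81 in Ae. longissima, a called log2 difference of -0.26.

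The 9 members of this cluster that were lower in T. urartu by 16-fold or more exceeded the percentile in Ae. longissima only in 7 cases and in both parents in 2, and had means of 3.69 to 7.96 in T. urartu, against 9.46 to 13.57 in Ae. longissima inflorescence. In leaf they reached at most 5.29 in T. urartu, against 7.86 in Ae. longissima. Of the 14 probe sets of cluster Ta.27657, 4 were higher in T. urartu (against 32% of all genes), 8 lower (against 20.4%) and 2 did not pass the test. Of the 11 members above the percentile in both parents, 4 were higher, 6 lower and 1 not called. The largest rise was 0.80 at Ta.27657.9.S1_at, which had 14.35, 14.31 and 14.26 in T. urartu, against 13.44, 13.52 and 13.54 in Ae. longissima. The largest fall was -4.94 at Ta.27657.11.S1_x_at, which exceeded the percentile in Ae. longissima only. All 4 higher members of that cluster are without a gene name, and the 5 called members named wcH2A-9 were lower. Hmgb3, which encodes a high mobility group protein of chromatin, went the other way. Its levels at Ta.30768.3.S1_x_at were 13.32, 13.25 and 13.33 in T. urartu, against 12.60, 12.30 and 12.38 in Ae. longissima, a rise of 0.87 (standard error 0.08, adjusted p = 3.72e-09), and those at Ta.30768.1.S1_x_at differed by 0.28 and did not pass the test (adjusted p = 0.087).

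Tubulins, the subunits of microtubules, were split. Of 10 probe sets 9 were analysed, with 3 higher in T. urartu (2 with centring over the analysed genes or quantile normalization), 4 lower and 2 not called, against 32% higher and 20.4% lower over all genes, and a median log2 difference of -0.03. The beta-tubulin gene Tubb5 was bright in both species, with 12.85, 12.83 and 12.79 in T. urartu, against 10.65, 10.79 and 10.92 in Ae. longissima at Ta.214.1.S1_at, 4.09-fold higher in T. urartu (log2 standard error 0.09, adjusted p = 3.83e-15). A second probe set, Ta.214.1.S1_x_at, was 1.66 higher, while Ta.214.2.A1_x_at, at 6.27, 7.10 and 7.04 in T. urartu, against 6.47, 6.56 and 7.45 in Ae. longissima, overlapped. Tubb4 was lower in T. urartu by 0.86 on the log2 scale (9.91, 9.77 and 9.87 in T. urartu against 10.57, 10.73 and 10.82 in Ae. longissima). The alpha-tubulin TUBA was lower at both of its analysed probe sets, by 0.97 at Ta.723.1.S1_at and by 0.30 at Ta.812.1.S1_x_at. The first of them exceeded the percentile in Ae. longissima only. Profilin-1, which binds actin monomers, was 0.71 higher in T. urartu (11.28, 11.14 and 11.03 in T. urartu against 10.75, 10.62 and 9.95 in Ae. longissima), but this call did not hold in a fit of the 6 parental arrays alone (adjusted p = 0.16). The second Profilin-1 probe set, Ta.5057.3.A1_at, was 0.26 higher.

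**Figure D3:**
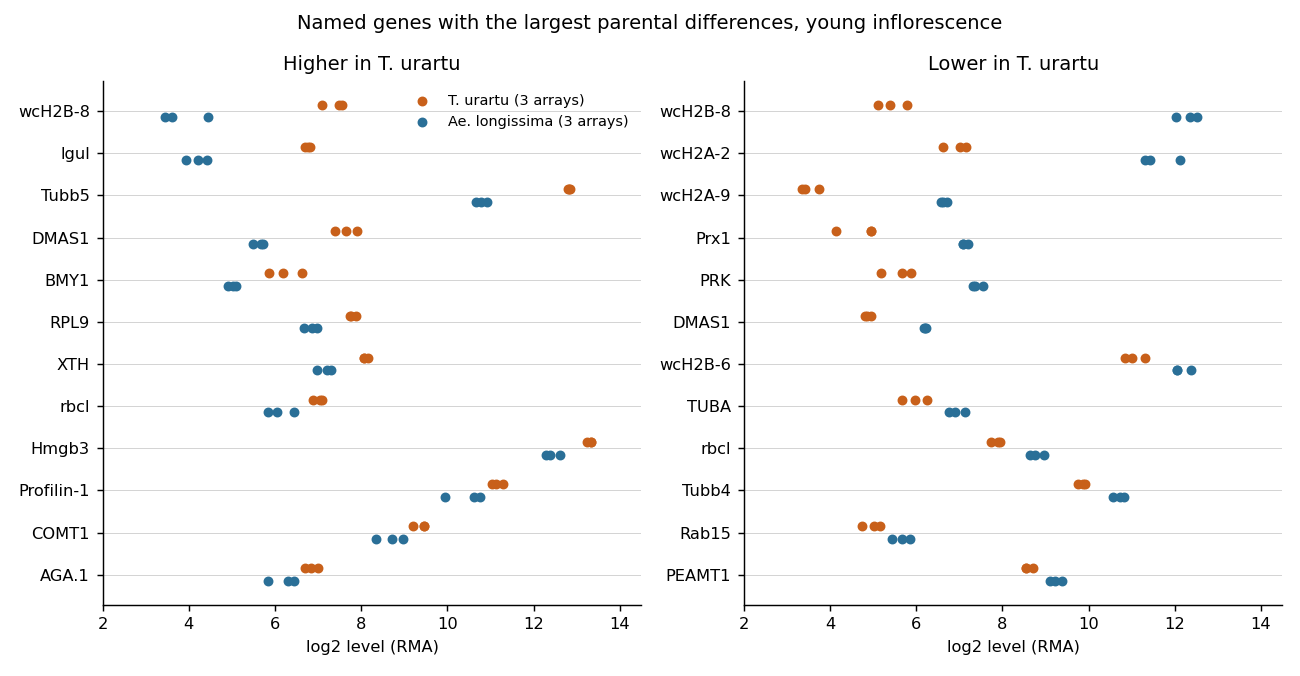
The log2 levels of 12 named genes that were higher in T. urartu (left) and 12 that were lower (right) are plotted for each array, orange for T. urartu and blue for Ae. longissima, 3 arrays each. By the rule of choice the 3 orange points lie on 1 side of the 3 blue points in all 24 rows. The widest separation is that of wcH2B-8 on the right.

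The called genes of the photosynthetic apparatus were lower in T. urartu, apart from 1 probe set of rbcl. Of 8 probe sets of nuclear photosynthesis genes 6 were analysed and 4 were lower (20.4% of all genes were), 0 higher (against 32%) and 2 not called, with a median log2 difference of -0.52 (of the 5 above the percentile in both parents, 3 were lower and 2 not called). PRK, the phosphoribulokinase of the Calvin cycle, had levels of 5.87, 5.17 and 5.67 in T. urartu, against 7.54, 7.31 and 7.37 in Ae. longissima, 3.58-fold lower in T. urartu with no overlap (log2 fold change -1.84, standard error 0.15, adjusted p = 1.21e-09). PRK exceeded the percentile in Ae. longissima only. PsbO and PsbP, proteins of the oxygen-evolving complex of photosystem II, were lower by 0.63 and 0.59, and petC, the Rieske protein of the cytochrome complex, by 0.45. A second PsbP probe set, TaAffx.120874.1.S1_x_at, was at 7.87, 7.63 and 7.49 in T. urartu, against 7.20, 7.48 and 7.11 in Ae. longissima and did not pass the test (adjusted p = 0.113). Of 28 probe sets annotated to rbcl, the plastid gene of the large Rubisco subunit, 6 were analysed, and 4 of these were lower in T. urartu (20.4% of all genes were), 1 higher and 1 not called. Lower among these were TaAffx.128414.196.S1_at (7.94, 7.73 and 7.91 in T. urartu, against 8.97, 8.64 and 8.76 in Ae. longissima) and the bright Ta.24976.1.S1_x_at (12.99, 13.05 and 13.07 in T. urartu, against 13.68, 13.62 and 13.62 in Ae. longissima). The nuclear genes were also the leaf markers of the tissue check above, and the part of tissue makeup in their parental difference was not tested.

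Of 7 analysed probe sets of translation genes 4 were called (52.5% of all genes were), all 4 higher in T. urartu (against 32%), but only 2 were higher with centring over the analysed genes or quantile normalization. RPL9, a protein of the large ribosomal subunit, had 7.89, 7.76 and 7.75 in T. urartu, against 6.97, 6.87 and 6.67 in Ae. longissima (log2 fold change 0.96, standard error 0.09, adjusted p = 5.98e-09). NCBP, a cap-binding protein, was 0.54 higher. The cap-binding initiation factor eIF4E, for which a primer is printed above, was at 10.91 to 11.12 in T. urartu, against 10.93 to 11.08 in Ae. longissima, a difference of 0.01 with a standard error of 0.07.

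Among 14 probe sets of redox enzymes 4 were analysed, with 1 higher in T. urartu (32% of all genes were), 2 lower (against 20.4%) and 1 not called. Only 2 of the 4 exceeded the percentile in both parents, with 1 lower and 1 not called. lgul, the lactoylglutathione lyase that detoxifies methylglyoxal, had 6.82, 6.77 and 6.69 in T. urartu, against 3.94, 4.21 and 4.42 in Ae. longissima at Ta.28068.1.S1_at. All 3 Ae. longissima values lay under the medians of their arrays, so the gene was at least 3.79-fold higher in T. urartu (adjusted p = 3.99e-15). Prx1, annotated among the redox enzymes, was lower in T. urartu at both of its analysed probe sets. At Ta.6572.1.S1_at the levels were 4.95, 4.94 and 4.15 in T. urartu, against 7.19, 7.09 and 7.08 in Ae. longissima, at least 5.03-fold lower, and at Ta.6572.1.S1_a_at they were 6.22, 6.19 and 6.02 in T. urartu, against 7.81, 7.73 and 7.65 in Ae. longissima, 1.59 lower as log2 (standard error 0.11, adjusted p = 7.79e-11). The thioredoxin gene Trx-M did not pass the test (0.33, adjusted p = 0.0777).

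DMAS1 encodes the last enzyme in the synthesis of deoxymugineic acid, with which grasses take up iron. Its probe sets went opposite ways. At Ta.5335.1.A1_at the levels were 7.66, 7.91 and 7.39 in T. urartu, against 5.49, 5.67 and 5.72 in Ae. longissima, 4.09-fold higher in T. urartu, and Ta.5335.1.A1_x_at was 1.79 higher on the log2 scale. At Ta.5335.3.S1_a_at they were 4.95, 4.81 and 4.85 in T. urartu, against 6.20, 6.18 and 6.22 in Ae. longissima, 1.33 lower in T. urartu (standard error 0.14, adjusted p = 1.56e-07). Ta.5335.1.A1_at exceeded the percentile in T. urartu only, and Ta.5335.3.S1_a_at in Ae. longissima only. Among 8 analysed probe sets of metal and ion transport, 2 were higher, 2 lower and 4 not called, a share of 50% called against 52.5% of all genes. The second fall was at ha1, a plasma membrane proton pump (TaAffx.55278.1.S1_x_at, -0.40), whose 2 other probe sets differed by -0.11 and -0.07 and did not pass the test.

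Of 5 analysed genes of starch and sugar metabolism 2 were higher in T. urartu and 3 not called, a share of 40% called against 52.5% of all genes. The beta-amylase gene BMY1, which releases maltose from starch, had 5.87, 6.62 and 6.18 in T. urartu, against 4.90, 5.09 and 5.04 in Ae. longissima (log2 fold change 1.22, standard error 0.16, adjusted p = 6.18e-06). BMY1 exceeded the percentile in T. urartu only. AGA.1, listed with the starch genes, averaged 6.85 ± 0.15 in T. urartu, against 6.19 ± 0.31 in Ae. longissima (SD, n = 3 each), 0.66 higher, a call lost in the fit of the 6 parental arrays (adjusted p = 0.0881). AGP-S, a subunit of the enzyme that commits glucose to starch, was at 10.07, 10.01 and 10.01 in T. urartu, against 10.06, 10.06 and 10.15 in Ae. longissima and did not pass.

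Cell wall, lipid and methylation genes were among the remaining calls, and of 24 analysed probe sets with other roles 10 were higher in T. urartu, 5 lower and 9 not called (62.5% called, against 52.5% of all genes). XTH, a xyloglucan endotransglycosylase that remodels cell walls, was higher in T. urartu by 0.94 (8.17, 8.07 and 8.06 in T. urartu against 7.29, 7.21 and 6.97 in Ae. longissima). COMT1, a methyltransferase of lignin synthesis, was higher by 0.69, a call lost in the fit of the 6 parental arrays (adjusted p = 0.0676), and the lipid transfer protein gene LTP3 by 0.54. PEAMT1, whose enzyme methylates phosphoethanolamine on the way to choline, was lower in T. urartu by 0.64 (8.71, 8.55 and 8.55 in T. urartu against 9.39, 9.22 and 9.11 in Ae. longissima). The dehydrin gene Rab15, which responds to drying, was lower by 0.68, and the translationally controlled tumour protein gene TCTP by 0.57. Rab15 exceeded the percentile in neither parent (5.16, 5.02 and 4.75 in T. urartu against 5.67, 5.44 and 5.86 in Ae. longissima). SAHH, the enzyme that clears S-adenosylhomocysteine, was lower by 0.38 at Ta.1258.1.S1_a_at and higher by 0.37 at Ta.1258.2.S1_x_at.

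No call was made in 3 analysed defence genes, 3 storage protein genes, 1 heat shock gene or 1 gibberellin gene, and 0 of the 4 raftin probe sets were analysed. Of all 23348 analysed genes 11096 were not called, so these few members cannot be read as equal expression of their lists. Most genes of the defence and storage lists were not analysed (21 and 14 probe sets were below the filter), so their parental difference was not measured here. Over all 96 named probe sets that were analysed, 26 were higher in T. urartu, 33 lower and 37 not called, whereas 32% of all analysed genes were higher and 20.4% lower.

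Of the 153 probe sets chosen for primers 148 were analysed, and 76 of these (51.4%, against 52.5% of all genes) were called, 54 of them higher in T. urartu and 22 lower, with a median log2 difference of 0.19. Ta.5529.1.A1_at stood at 11.33, 11.08 and 11.21 in T. urartu, against 8.34, 8.42 and 8.56 in Ae. longissima (2.77 higher). Ta.30497.1.A1_at had 4.28, 4.73 and 4.78 in T. urartu, against 9.85, 9.74 and 9.52 in Ae. longissima (at least 30.2-fold lower), and Ta.14590.1.S1_at had 4.42, 3.80 and 4.35 in T. urartu, against 9.25, 9.08 and 9.22 in Ae. longissima (at least 21-fold lower). The T. urartu means of the last 2 lay under the medians of those arrays (4.77 to 4.81).

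Among genes that carry no name, the 3 largest rises and the 3 largest falls had 1 parent near the bottom of the scale. Ta.2939.2.S1_s_at was at 11.43, 11.48 and 11.36 in T. urartu, against 4.31, 3.97 and 4.44 in Ae. longissima, at least 96.1-fold higher. Ta.28759.1.A1_at, with 10.38, 10.21 and 10.24 in T. urartu, against 3.59, 4.02 and 3.71 in Ae. longissima, was at least 43.3-fold higher, and Ta.28298.1.S1_x_at, with 9.48, 9.36 and 9.22 in T. urartu, against 2.61, 3.28 and 2.84 in Ae. longissima, at least 22.9-fold. On the other side, 3 genes were near the bottom of the scale in T. urartu. Ta.27765.3.S1_at was at 3.12, 2.15 and 2.51 in T. urartu, against 13.18, 13.04 and 12.82 in Ae. longissima, at least 299-fold lower in T. urartu. Ta.9601.1.S1_at (2.72, 3.58 and 3.26 in T. urartu, 13.02, 12.96 and 12.77 in Ae. longissima) was at least 280-fold lower, and Ta.7378.3.S1_at of the wcH2B-8 cluster (3.68, 3.79 and 3.76 in T. urartu, 13.45, 13.38 and 13.44 in Ae. longissima) at least 397-fold lower. Non-overlapping arrays were a condition for choosing these 6.

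The same genes were then read in the other genotypes, whose arrays do not enter the contrast. All of them share the estimate of spread, and Mix and AT2, but not TD and TTR13, share the filter. On a log2 scale an equal mixture of a high and a very low level lies close to the high one. The mean of the 3 Mix arrays was between the parental means for 92% of all PED genes, for 1256 of the 1266 that were higher in T. urartu by 4-fold or more and for 1080 of the 1102 that were lower. It was nearer to the brighter parent for all 93 and all 303 genes that differed by 16-fold or more. In AT2, of the 93 genes higher in T. urartu, 88 had all 4 generation means nearer to T. urartu and 1 had all 4 nearer to Ae. longissima. Of the 303 genes lower in T. urartu, 216 had all 4 generation means nearer to Ae. longissima, and 76 (25.1%) had all 4 nearer to T. urartu, the dim parent. At 4-fold or more, all 4 generation means lay nearer to the dimmer parent for 25 of the 1266 genes that were higher in T. urartu and for 301 of the 1102 that were lower.

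**Figure D4:**
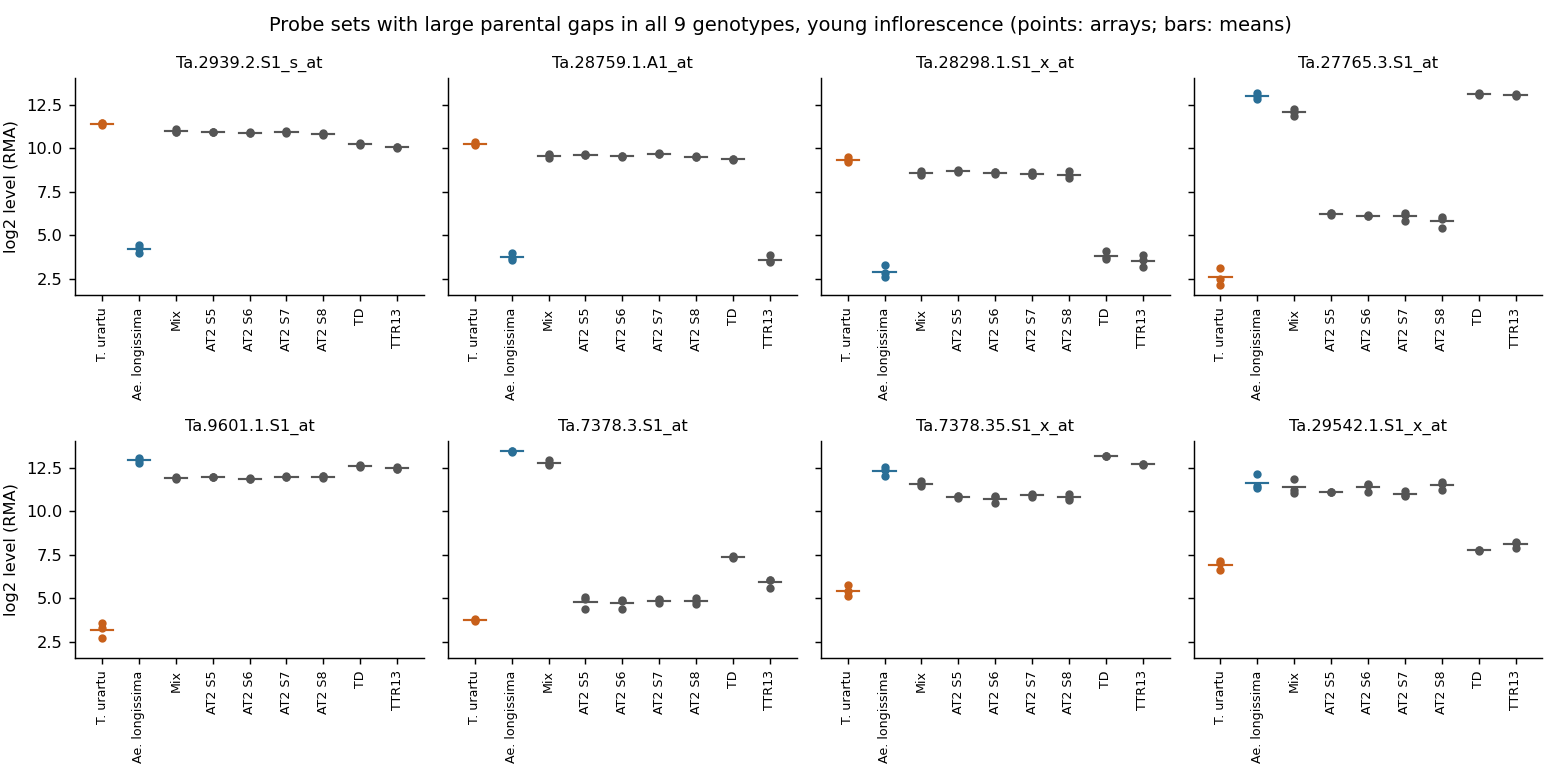
The log2 level in young inflorescence is plotted for the 6 genes without a name given above and for wcH2B-8 and wcH2A-2 (last 2 panels) in all 9 genotypes, each array as a point and the mean of 3 arrays as a bar, with T. urartu in orange, Ae. longissima in blue and the other genotypes in grey. Mix stands beside the brighter parent in all 8 panels, while AT2 stands far below Mix in the panels of Ta.27765.3.S1_at and Ta.7378.3.S1_at.

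Ta.27765.3.S1_at averaged 12.06 ± 0.20 in Mix (SD, n = 3), 6.25, 6.14, 6.10 and 5.81 in S5, S6, S7 and S8 of AT2, 13.12 in TD and 13.07 in TTR13. Ta.7378.3.S1_at averaged 12.75 ± 0.15 in Mix but 4.72 to 4.85 in the 4 generations, beside 3.74 ± 0.06 in T. urartu, against 13.42 ± 0.04 in Ae. longissima. By contrast, Ta.9601.1.S1_at kept 11.87 to 11.97 in AT2 and 11.90 in Mix. In 47 of the 76 genes both natural tetraploids lay nearer to the bright level of Ae. longissima, against 182 of all 303. Among the large rises, Ta.28298.1.S1_x_at stood at 8.59 in Mix and 8.49 to 8.70 in AT2 but at 3.84 in TD and 3.56 in TTR13, and Ta.28759.1.A1_at at 9.37 in TD and 3.61 in TTR13. wcH2A-2 (Ta.29542.1.S1_x_at) was likewise high in Mix (11.36) and AT2 (10.98 to 11.49) and lower in TD (7.75) and TTR13 (8.09).

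For many genes the parental difference was not the same in the young inflorescence and leaf arrays. Leaves came from seedlings and inflorescences from plants at the booting stage, so tissue and plant age cannot be told apart. Tested as an interaction of tissue and parent over 54 arrays in limma, the ratio of T. urartu over Ae. longissima differed between young inflorescence and leaf for 10482 of 27583 genes (38%). Of the 19818 genes analysed in both tissues, 5544 were called the same way in both and 738 in opposite ways. Of the 738, 594 were higher in T. urartu inflorescence and lower in T. urartu leaf, and 144 the reverse. This split was not tested with other scalings of the arrays, on which the directions of small differences depend. Calls in young inflorescence only were made for 2200 of the 19818 genes that were higher in T. urartu and 1415 that were lower. Calls in leaf only were made for 1146 that were higher and 2294 that were lower. Among 80 named probe sets analysed in both tissues, 20 were called the same way, 5 in opposite ways, 22 in young inflorescence only and 12 in leaf only. Whether the named probe sets differ from all genes in this was not tested.

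**Figure D5:**
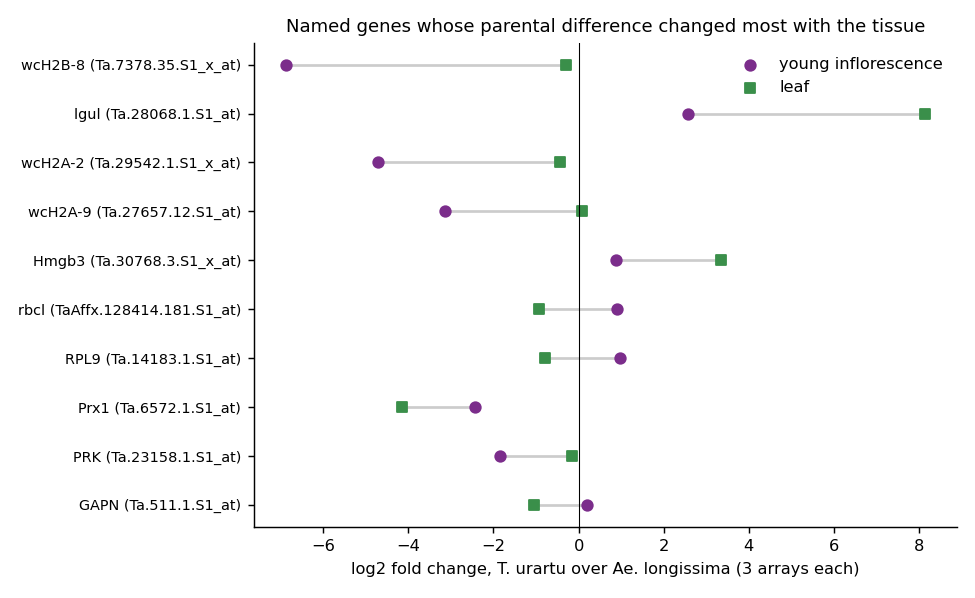
The log2 fold change of T. urartu over Ae. longissima is plotted for the 10 named genes with the largest called interaction of tissue and parent, as circles for young inflorescence and squares for leaf (3 arrays per species and tissue). The difference of lgul is 2.57 in young inflorescence and 8.15 in leaf, those of wcH2B-8, wcH2A-2, wcH2A-9 and PRK lie near 0 in leaf only (the 3 histones were under the array medians of both species there), and those of rbcl and RPL9 lie on opposite sides of 0.

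All 5 named probe sets that turned were higher in T. urartu inflorescence and lower in T. urartu leaf. They were RPL9 (0.96 in young inflorescence, -0.79 in leaf), the rbcl probe set TaAffx.128414.181.S1_at (0.90 and -0.94), SAHH at Ta.1258.2.S1_x_at (0.37 and -0.76), the purine enzyme gene AdSS (0.54 and -0.34) and at2G04570 (0.34 and -0.53). The histone probe sets wcH2B-8 (Ta.7378.35.S1_x_at), wcH2A-2 and wcH2A-9 (Ta.27657.12.S1_at) differed in young inflorescence by the amounts given above and in leaf by -0.29, -0.45 and 0.08. They were not analysed in leaf, where the means of both species (2.86 to 4.20) lay under the array medians, so no leaf difference could be measured and the interaction restates the gap in young inflorescence. lgul was higher in T. urartu in both tissues, by at least 3.79-fold in young inflorescence and at least 180-fold in leaf, since its Ae. longissima mean lay under the array medians in both. Hmgb3 was higher in both at Ta.30768.3.S1_x_at (0.87 in young inflorescence and 3.35 in leaf), while Ta.30768.1.S1_x_at was called in neither tissue (0.28 and 0.53) and its interaction of -0.25 was not called. At Ta.6572.1.S1_at Prx1 was lower in T. urartu in both, by at least 5.03-fold in young inflorescence and by 4.14 on the log2 scale in leaf. At Ta.6572.1.S1_a_at, its brighter probe set, the differences were -1.59 in young inflorescence and -1.08 in leaf, and the interaction of -0.51 was not called (adjusted p = 0.277). GAPN, a glyceraldehyde-3-phosphate dehydrogenase, was at 6.53, 6.35 and 6.06 in T. urartu, against 5.98, 6.33 and 6.04 in Ae. longissima inflorescence, with overlapping arrays, and had a log2 fold change of -1.04 in leaf.

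Most sequence clusters held calls in a single direction, but the probe sets of some disagreed, as those of wcH2B-8 and DMAS1 did. Of 1412 clusters with at least 2 PED probe sets, 1022 held calls in a single direction and 390 (27.6%) in both. Of 199 clusters with at least 2 calls of 4-fold or more, these numbers were 151 and 48 (24.1%). Whether probe sets of a cluster disagreed more or less than unrelated probe sets was not tested. The suffix of a probe set's name tells whether its probes are shared among sequences. Of the called probe sets without a suffix for shared probes 59.6% were higher in T. urartu, against 72.5% of those for several transcripts of a gene (_a_at), 65.7% of those shared between genes (_s_at) and 57.1% of those with partly matching probes (_x_at). The share over all PED genes was 61.1%. These shares are on the deposited scale, and the difference between suffixes was not tested.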

How the data were processed

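The authors hybridized total RNA to the Affymetrix Wheat Genome Array and deposited log2 values made by RMA (background correction, quantile normalization and 1 summary per probe set). The labels name limma and MAS5 without versions. The deposited log2 values were used unchanged, and no column was left without a sample. Present calls from MAS5, the filter named in the study's methods, rest on probe-level data that were not used here, and the percentile filter took their place. One mean per genotype was fitted to the 27 young inflorescence arrays in R 4.3.3 with limma 3.58.1 (tables were read with the package data.table, version 1.17.8), and tissue differences were fitted to 54 arrays. Calls used a Benjamini-Yekutieli adjusted p under 0.05. The fit was tried on simulated arrays with independent noise and changes planted in a small part of the probe sets. That setting differs from these data, where many genes were called, so the error rate of the calls here was not measured. No scan date or slide was used as a batch, and 3 arrays per species limit the precision. The platform annotation paired 1273 of 61115 probe sets with a gene, those of 1272 were found in RefSeq's gene table of bread wheat assembly IWGSC CS RefSeq v2.1, and 200 carry a name.

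Named genes are the 12 largest rises and falls among called, non-overlapping probe sets with 1 gene name, called members of the gene lists (the 4 largest in long lists), and the 10 largest tissue differences. The 3 largest rises and falls without a name were also taken among called, non-overlapping probe sets. Members and lists were chosen with earlier results of these data known. Alternatives were other adjustments, filters, scalings, fold minimums, fits of parental arrays only, probe sets without shared suffixes, a replicate block, and leaving out each array. Figures were drawn with Python 3.11.15 and matplotlib 3.10.9.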

Additional observations from a re-analysis of the deposited data

Results flagged for a closer look

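The parental difference itself differed between young inflorescence and leaf in the interaction test over 54 arrays (Benjamini-Yekutieli adjusted p in limma) for 38 of the 96 named probe sets analysed in young inflorescence, against 38% of all genes tested, and the 10 genes with the largest change are given here, with 1 probe set each. The change, young inflorescence minus leaf on the log2 scale, was -6.59 for wcH2B-8 (Ta.7378.35.S1_x_at, adjusted p = 6.24e-22), -4.26 for wcH2A-2 (7.48e-16) and -3.21 for wcH2A-9 (Ta.27657.12.S1_at, 3.57e-13). The leaf means of these 3 (2.86 to 4.20) lay under the array medians in both species, so these values restate the gap in young inflorescence. It was -5.58 for lgul (3.44e-24), whose leaf means were 12.4 in T. urartu, against 4.24 in Ae. longissima, and -2.48 for Hmgb3 at Ta.30768.3.S1_x_at (9.59e-14), where the second Hmgb3 probe set was not called (-0.25). It was -1.69 for PRK (2.42e-10) and 1.70 for Prx1 at Ta.6572.1.S1_at (5e-08), whose T. urartu mean in young inflorescence lay under the array median, while at Ta.6572.1.S1_a_at it was -0.51 and not called (0.277). It was 1.83 for the rbcl probe set TaAffx.128414.181.S1_at (1.81e-06), 1.76 for RPL9 (9.19e-11) and 1.24 for GAPN (0.000476). The rbcl probe set and RPL9 were called in opposite directions in young inflorescence and leaf. Groups of 3 arrays were too small for the test for outlying samples.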

How the results depend on the processing

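The number of PED genes in young inflorescence stayed within 1.5 times of 12252 except with a minimum fold change of 2 (5725) and with only probe sets without shared suffixes (8164, because fewer are tested). The tissue difference (10482 genes) moved as far only with the latter (6801). The share of PED genes higher in T. urartu, 61.1% as deposited, moved most with the scale of the arrays: it was 50.1% with median centring over the analysed genes, 52% with quantile normalization over all probe sets and 64.9% with median centring over all probe sets. It was 59% with Benjamini-Hochberg adjustment (15200 genes), 57.4% with no filter, 59.5% and 62.5% with filters at the 50th and 75th percentile, 64.9% for genes above the percentile in both parents, 61.8% in a fit of only the 6 parental arrays (9233 genes), 59.7% at 2-fold or more and 59.6% without shared suffixes. It was over 50% in each, but at 50.1% with median centring over the analysed genes the directions were close to evenly split. Leaving out 1 array gave 11300 to 11772 PED genes, a share of 60.7% to 62.3%, and 9739 to 10097 genes with a tissue difference. Same-numbered arrays of both species did not deviate together in every pair (correlations 0.01, 0.11 and 0.25), so the numbers were not taken as pairs; a replicate block gave 12198 PED genes, a share of 61.2% and 10409 genes with a tissue difference. Of 505 values of 34 differences of named genes under the alternatives, 502 kept direction and call and 3 lost the call, those of Profilin-1, COMT1 and AGA.1 in the fit of the 6 parental arrays. Signals under the array median limit the folds of the dimmest genes.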
